A study of Mus musculus with 16 samples.

Results

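The genes described here are 10 mouse genes of the germ line and of the pluripotent cells from which it arises: Dppa2, Dppa3, Dppa4 and Dppa5a, which are named for developmental pluripotency, the transcription factors Prdm1 and Tfap2c, and the germ cell genes Dazl, Ddx4, Sycp3 and Mael. They were taken by name out of 20972 genes named on the array, with earlier results of these data known. All 10 were well above background on 16 of 16 arrays, and all 10 were among the 15660 genes tested. RNA from E14tg2a embryonic stem cells, grown on gelatin with serum and the cytokine LIF, was measured on 16 one-colour Agilent arrays. Per the series' design text, the cells carry a c-Raf fusion protein that tamoxifen switches on, and c-Raf is the kinase that starts the cascade ending in Erk.

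There were 8 groups of 2 replicates. DMSO cells had vehicle only. The 0h cells had 24 hours of 250 nM PD173074, an inhibitor of FGF receptors, and no induction. The groups 30m, 1h, 2h, 4h, 8h and 24h then had 250 nM 4-hydroxytamoxifen (4OHT) for the time named, with the inhibitor still present (the 4h samples' titles and time points say 4h, which was used, while their description gives the 4 in minutes), so each of them shares the inhibitor with 0h and not with DMSO. The clone or integration site of the fusion is not stated in the sources used here, and no samples lacking the fusion, or given 4OHT with no inhibitor, were analysed here. Time in the inhibitor also grew with the time of 4OHT, and no group had the longer time without 4OHT. In the differences from 0h, 4OHT and longer time in the inhibitor therefore cannot be told apart. The labels do not say whether replicates came from separate cultures, so the spread behind every p-value is that between 2 samples and may be technical.

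The record of which array belongs to which sample has 2 versions. Headings of the deposited value table were followed, a choice made with the data known. For 8 of the 16 arrays the scanner file is attached to another sample, and every difference below rests on the value table being right: by the scanner files' attachment 0 of the 10 genes were called at 24h against 0h. By these headings all replicate 1 arrays lie on slide 1 and all replicate 2 arrays on slide 2, so the replicate number is also the slide. The share of spots well above background was 54.9 to 60.0% for slide 1 and 61.5 to 67.2% for slide 2. Usual readouts of the pathway differed between the groups. The immediate early gene Egr1 was 5.38 ± 0.57 higher on the log2 scale at 2h than at 0h (SE, adjusted p = 0.0079). Spry4, a feedback inhibitor of the pathway, fell by 3.39 ± 0.38 at 0h relative to DMSO (adjusted p = 0.0033), with the inhibitor and before any 4OHT. Against 0h, Spry4 was called higher at 2h, 4h, 8h and 24h.

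In the mouse embryo, primordial germ cells arise from pluripotent epiblast cells when Prdm1, Prdm14 and Tfap2c act together. Embryonic stem cells express part of this early germ cell programme. The later programme of meiosis and of piRNAs, small RNAs that silence transposons, is held down in stem cells by DNA methylation and by a Polycomb complex that contains E2f6, Mga and Pcgf6. E2f6 binds the letters TCCCGC, and Mga with its partner Max binds CACGTG. Dppa2 and Dppa4 are nuclear proteins that work as a pair on chromatin, where they protect a set of developmental promoters from DNA methylation and act upstream of genes of the early cleavage embryo. Dppa3, also called Stella, guards the maternal genome of the fertilised egg against demethylation and is expressed in only a fraction of the cells of a serum culture.

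RefSeq promoter sequences (build GRCm38.p6) were matched to 5 of the 10 genes, and 4 of these are shown because Ddx4 and Mael rose at 24h while Dazl and Sycp3 did not. Each is the 250 bases before the transcription start, 5′ to 3′ on the gene's own strand, with TCCCGC, its reverse complement GCGGGA and CACGTG in capitals. Positions are counted back from the start, and the first base of each motif is given.
Ddx4: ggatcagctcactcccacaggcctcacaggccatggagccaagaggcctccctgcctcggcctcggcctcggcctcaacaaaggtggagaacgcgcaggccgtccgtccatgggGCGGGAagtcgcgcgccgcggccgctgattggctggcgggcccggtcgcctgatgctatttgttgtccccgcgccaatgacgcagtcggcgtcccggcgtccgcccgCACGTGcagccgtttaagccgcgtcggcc
Mael: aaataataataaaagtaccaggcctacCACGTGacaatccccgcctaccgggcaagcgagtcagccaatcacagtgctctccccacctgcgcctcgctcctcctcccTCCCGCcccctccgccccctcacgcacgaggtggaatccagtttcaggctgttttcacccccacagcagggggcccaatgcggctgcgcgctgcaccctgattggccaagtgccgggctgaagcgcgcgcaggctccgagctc
Sycp3: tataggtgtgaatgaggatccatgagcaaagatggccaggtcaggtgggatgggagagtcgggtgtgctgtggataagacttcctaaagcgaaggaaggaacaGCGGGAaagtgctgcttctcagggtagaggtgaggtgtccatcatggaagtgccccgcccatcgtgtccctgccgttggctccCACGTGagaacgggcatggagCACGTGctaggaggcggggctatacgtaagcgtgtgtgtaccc
Dazl: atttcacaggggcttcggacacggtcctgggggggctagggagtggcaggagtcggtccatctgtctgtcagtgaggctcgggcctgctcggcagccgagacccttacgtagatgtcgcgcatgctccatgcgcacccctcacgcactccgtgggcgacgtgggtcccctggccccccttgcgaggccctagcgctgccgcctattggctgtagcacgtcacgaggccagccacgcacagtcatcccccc
The Ddx4 window, chr13:112652311-112652560 on the minus strand, holds 1 TCCCGC match at -136 and 1 CACGTG match at -29. In the Mael window, chr1:166238745-166238994 on the minus strand, the TCCCGC match is at -143 and the CACGTG match at -223. Sycp3, at chr10:88459337-88459586 on the plus strand, has a TCCCGC match at -147 and 2 CACGTG matches, at -64 and -43. Neither motif is in the Dazl window, chr17:50293621-50293870 on the minus strand. The fifth promoter, that of Prdm1 at chr10:44458749-44458998 on the minus strand, also holds neither. None of the 5 holds CCGGAAGT, a sequence that ETS factors bind. Both strands were searched, and no match overlaps another. Among 32851 promoter windows of this length, 16.9% hold TCCCGC, 6.02% hold CACGTG and 2.88% hold CCGGAAGT. CpG pairs number 31 in the Ddx4 window, 20 in Dazl, 18 in Mael, 15 in Prdm1 and 12 in Sycp3, against a median of 6 over all windows. The probes measure RNA, so these matches are a description of the sequence and not of any protein's binding in these cells.

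Values below are log2 signals from which each array's 75th percentile was subtracted, so a value of 0 is that percentile. A gene is measured by its brightest probe, and levels of different genes are not set against each other. "Called" means an adjusted p below 0.05 in limma, with 1 fit of all 8 groups and Benjamini-Hochberg adjustment over all 15660 genes. The same fit with the replicate number as a block removes what the arrays of a slide share. For the 10 genes its result stands beside the first where it changes a call, and for the other gene lists as counts. The 6 times of 4OHT are all set against the same 2 arrays of 0h, so a deviation of those arrays enters each of these differences, and with opposite sign the difference of 0h from DMSO.

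At 24h of 4OHT, 5 of the 10 genes were called against 0h: Dppa2, Ddx4 and Mael were higher, and Dppa3 and Prdm1 were lower. Of all genes tested, 23.7% were called in this comparison, 10.8% higher and 12.9% lower. With the replicate block 8 of the 10 were called, with Dppa4 also higher and Tfap2c and Sycp3 also lower, against 39.5% of all genes. For 0h against DMSO no member was called, where 3.49% of all genes were. With the block 7 were called (14.9% of all genes), Dppa3, Prdm1 and Tfap2c higher and Dppa2, Dppa4, Ddx4 and Mael lower. Without the block 4 of the members had an unadjusted p below 0.05 in 0h against DMSO, and 2777 of all genes did. Nothing among the 10 was called at 30m, 1h or 2h in either fit, with 0%, 0% and 0.115% of all genes called (0%, 0.0192% and 0.479% with the block) and an unadjusted p below 0.05 for 0 members at each of these times. Over all genes 96, 345 and 950 had such a p. At 4h and at 8h 0 members were called (3.19% and 6.65% of all genes). An unadjusted p below 0.05 was found for 4 and 3 members, and for 2954 and 3463 of the 15660 genes tested. With the block 3 were called at each, Dppa2 and Dppa4 higher at both, Prdm1 lower at 4h and Dppa3 lower at 8h (16.1% and 21% of all genes). Against DMSO, 24h cells differed in 1 member, Dppa3, where 11.4% of all genes were called, and with the block in 4 (26% of all genes). Between 24h and 8h 2 members were called, Ddx4 higher and Dppa3 lower, where 8.84% of all genes were, and with the block 3 (22.9% of all genes).

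**Figure D1:**
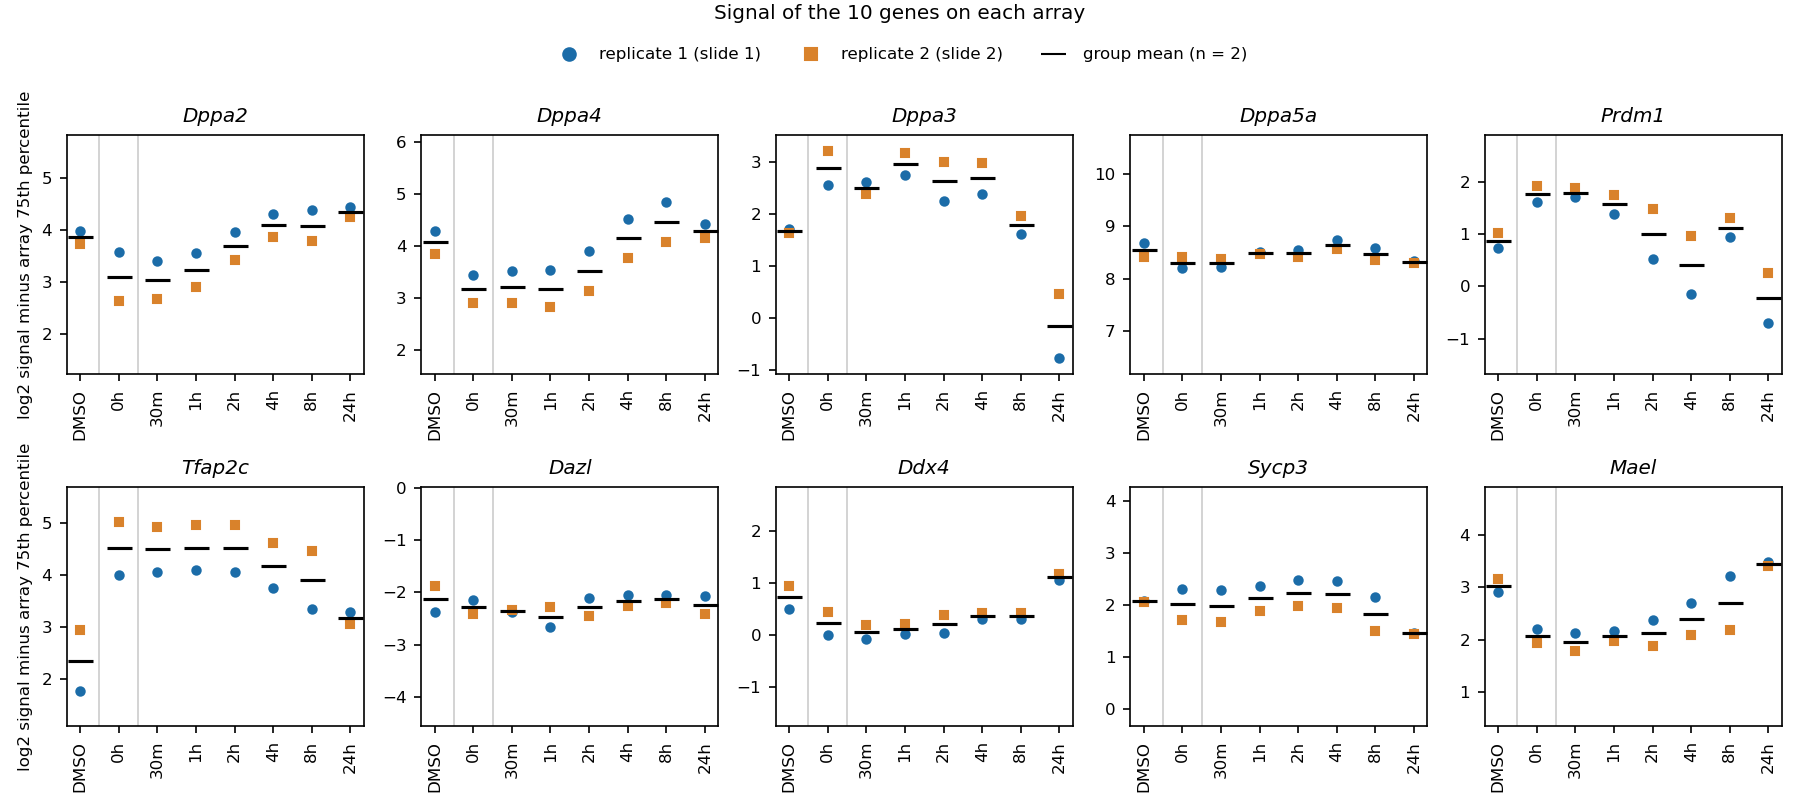
Signal of each of the 10 genes on each of the 16 arrays, by group (x axis) and replicate (colour and shape), as log2 signal minus the array's 75th percentile; the black dash is the mean of the 2 arrays, and every panel spans the same log2 range. Dppa3 and Prdm1 have their lowest means at 24h, Ddx4 and Mael their highest, and Dppa5a and Dazl span 0.35 between their lowest and highest group means.

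Dppa2 and Dppa4 were low around 0h and higher late in the course of 4OHT, which passed the test at 24h for Dppa2 and, with the replicate block, from 4h for both. Dppa2 had log2 values of 3.97 and 3.74 in DMSO, 3.57 and 2.63 at 0h, 3.40 and 2.68 at 30m, 3.55 and 2.91 at 1h, 3.96 and 3.42 at 2h, 4.31 and 3.87 at 4h, 4.38 and 3.79 at 8h, and 4.43 and 4.25 at 24h (replicate 1, then replicate 2). Replicate 1 was above replicate 2 in every group, and the arrays of 4h, 8h and 24h all lay above those of 0h. Dppa2 was 1.24 ± 0.38 higher at 24h than at 0h, a 2.37-fold difference (SE, adjusted p = 0.0372), with 0.86 on slide 1 and 1.62 on slide 2. With the block the SE was 0.17 (adjusted p = 0.0004). Arrays were left out only in the fit without the block, where the call rests on single arrays. There it was lost without replicate 2 of 0h (difference 0.77), replicate 1 of 24h (1.15) or replicate 2 of 24h (1.33). It was lost as well without either DMSO array (adjusted p = 0.0507 for each), with no filter on dim probes (adjusted p = 0.0505) and with arrays centred on their median (adjusted p = 0.205). Its differences of 1.00 at 4h and 0.98 at 8h from 0h were not called without the block (adjusted p = 0.188 and 0.158) and were called with it (adjusted p = 0.0073 and 0.0051). For 0h against DMSO the difference was -0.76 ± 0.38, with adjusted p = 0.340 without the block and 0.0178 with it.

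Dppa4 lies beside Dppa2 on chromosome 16. It had log2 values of 4.29 and 3.86 in DMSO, 3.46 and 2.91 at 0h, 3.52 and 2.91 at 30m, 3.55 and 2.83 at 1h, 3.91 and 3.14 at 2h, 4.53 and 3.78 at 4h, 4.86 and 4.09 at 8h, and 4.44 and 4.16 at 24h. Here too both arrays of 4h, 8h and 24h were above both arrays of 0h, and replicate 1 was above replicate 2 in every group. At 24h it was 1.12 ± 0.41 higher than at 0h (2.17-fold), which missed the threshold without the block (adjusted p = 0.0746) and passed it with the block (adjusted p = 0.0002). It also passed with quantile normalization (adjusted p = 0.0391), normexp correction (adjusted p = 0.0354) and the mean over its 3 probes (adjusted p = 0.0459). The values for 8h were 1.29 ± 0.41, with adjusted p = 0.0884 and 0.0004, and for 4h 0.97 ± 0.41, with adjusted p = 0.233 and 0.0033. At 0h against DMSO the difference was -0.89 ± 0.41 (adjusted p = 0.289, and 0.0029 with the block), with -0.83 on slide 1 and -0.95 on slide 2.

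Neither gene of the pair was called against DMSO at 24h in either fit. Without the block the difference was 0.49 for Dppa2 (95% interval -0.35 to 1.33) and 0.22 for Dppa4 (-0.68 to 1.13). These intervals reach past 2-fold, but their spread includes the offset between slides. By slide the differences were 0.46 and 0.52 for Dppa2, and 0.15 and 0.30 for Dppa4. With the block the SE was 0.17 and 0.13 (adjusted p = 0.0609 and 0.241). Their group means followed each other over the 8 groups with a Pearson r of 0.946, and 0.947 without 24h. The points share arrays and slides, and r is given as a description. Other probes of both genes gave the same direction at 24h against 0h: 1.01 ± 0.34 for the dimmer Dppa2 probe, and 1.06 ± 0.44 and 1.22 ± 0.26 for the other Dppa4 probes.

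Dppa3 had the largest fall of the 10. Its log2 values were 1.71 and 1.63 in DMSO, 2.56 and 3.21 at 0h, 2.61 and 2.38 at 30m, 2.74 and 3.18 at 1h, 2.25 and 2.99 at 2h, 2.38 and 2.98 at 4h, 1.62 and 1.96 at 8h, and -0.77 and 0.45 at 24h. Both arrays of 24h lay below all 14 others. Dppa3 fell by 3.04 on the log2 scale at 24h against 0h (SE 0.41), 8.25-fold lower (adjusted p = 0.0007), with -3.33 on slide 1 and -2.76 on slide 2. At 24h it also fell by 1.83 ± 0.41 relative to DMSO (adjusted p = 0.0184) and by 1.95 ± 0.41 relative to 8h (adjusted p = 0.0162). Without replicate 1 of 24h, the lowest array, the first of these stayed called, while the difference from DMSO was -1.22 (adjusted p = 0.167) and that from 8h -1.34 (adjusted p = 0.128). Leaving out replicate 1 or 2 of DMSO (adjusted p = 0.108 and 0.0691) or replicate 2 of 8h (adjusted p = 0.0843) also ended those calls.

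At 0h against DMSO and at 8h against 0h the differences of Dppa3 had the opposite sign to those of Dppa2 and Dppa4. Both 0h arrays were above both DMSO arrays, by 1.22 ± 0.41 in the means (adjusted p = 0.147, and 0.0240 with the block). At 8h against 0h the difference was -1.10 ± 0.41 (adjusted p = 0.144, and 0.0284 with the block), and at 4h the difference was -0.21, with overlapping arrays. In bulk RNA, fewer cells with Dppa3 and less Dppa3 RNA per cell cannot be told apart.

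Dppa5a, an RNA-binding KH-domain protein of pluripotent cells, stayed within a narrow band. Its log2 values ran from 8.19 to 8.73 over the 16 arrays, with 8.33 and 8.30 at 24h, 8.19 and 8.41 at 0h, and 8.68 and 8.42 in DMSO. The difference of 24h from 0h was 0.02, with a 95% interval of -0.30 to 0.33, which does not reach a 2-fold change in either direction. The furthest mean from 0h was at 4h, 0.35 ± 0.14 (adjusted p = 0.212, and 0.0872 with the block). No comparison called Dppa5a in either fit.

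**Figure D2:**
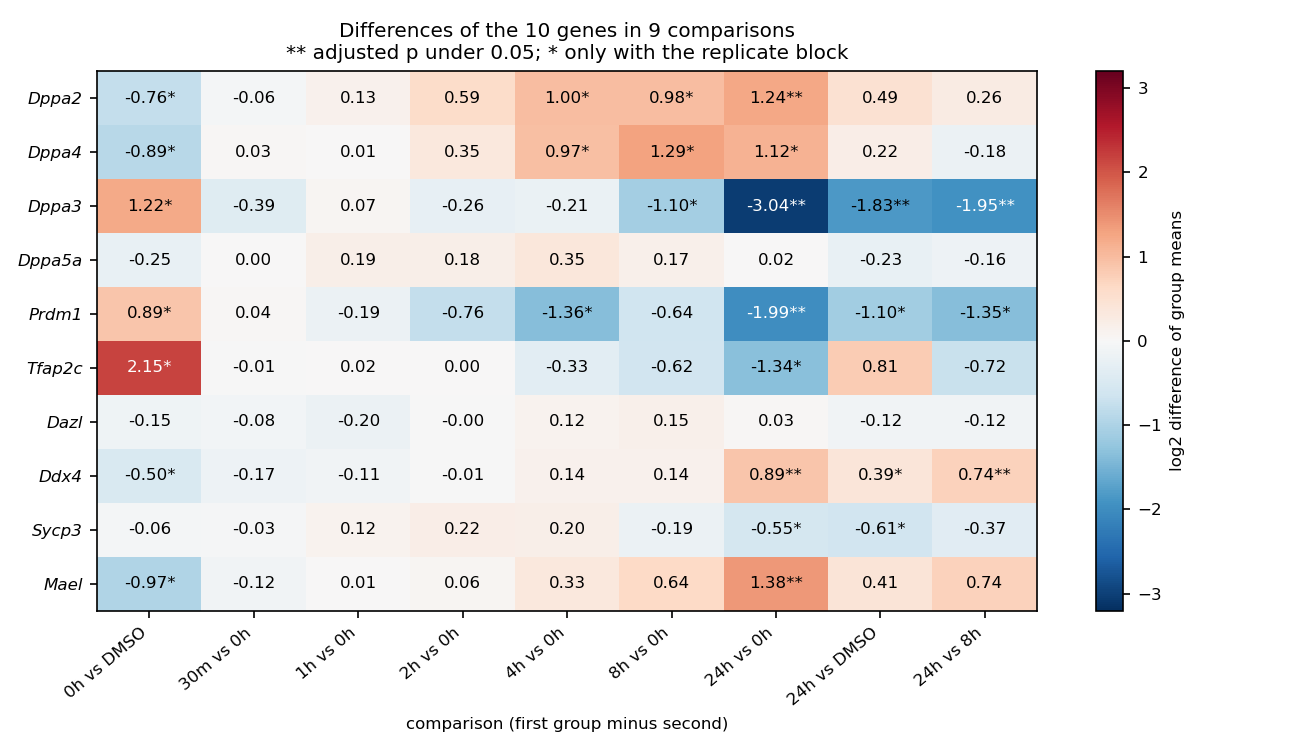
Log2 difference of group means (first group minus second, colour and printed value) for the 10 genes (rows) in 9 comparisons (columns). Double stars mark an adjusted p under 0.05, and single stars mark the differences that pass only with the replicate block; Dppa2, Dppa4, Ddx4 and Mael are below 0 at 0h against DMSO and above 0 at 24h against 0h, and Dppa3, Prdm1 and Tfap2c have the opposite signs.

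Prdm1, the repressor that blocks the somatic programme in nascent germ cells, was lower at 24h of 4OHT than at 0h. It had log2 values of 0.75 and 1.02 in DMSO, 1.61 and 1.92 at 0h, 1.72 and 1.88 at 30m, 1.39 and 1.76 at 1h, 0.53 and 1.49 at 2h, -0.15 and 0.98 at 4h, 0.95 and 1.31 at 8h, and -0.69 and 0.25 at 24h. The descent was uneven, since the arrays of 8h lay above the 4h and 24h means, and replicate 1 was lower than replicate 2 in every group. At 24h it fell by 1.99 ± 0.43 relative to 0h, 3.96-fold lower (adjusted p = 0.0077), with -2.30 on slide 1 and -1.67 on slide 2. The call was lost without replicate 1 of 24h (-1.51, adjusted p = 0.0769) or replicate 2 of 0h (-1.83, adjusted p = 0.0538). With the block alone it was also lower at 4h than at 0h (-1.36 ± 0.43, adjusted p = 0.0091, against 0.119 without the block), lower at 24h than in DMSO (-1.10, adjusted p = 0.0110 and 0.133) and lower at 24h than at 8h (-1.35, adjusted p = 0.0047 and 0.0801). The last was also called without replicate 2 of 24h (-1.82, adjusted p = 0.0470) or with median centring (adjusted p = 0.0438). At 0h it was 0.89 ± 0.43 above DMSO (adjusted p = 0.319, and 0.0398 with the block).

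Tfap2c is the AP-2 transcription factor of germ cell specification, and is also known from trophoblast. Its log2 values were 1.77 and 2.93 in DMSO, 4.00 and 5.01 at 0h, 4.06 and 4.92 at 30m, 4.09 and 4.95 at 1h, 4.05 and 4.95 at 2h, 3.75 and 4.60 at 4h, 3.33 and 4.44 at 8h, and 3.28 and 3.05 at 24h. Both DMSO arrays lay below all 14 arrays with the inhibitor, and until 8h replicate 2 was above replicate 1 by about as much in each group. The difference of 0h from DMSO, 2.15 ± 0.58, was the largest of the 10 genes in that comparison, with 2.23 on slide 1 and 2.07 on slide 2. It had an adjusted p of 0.0765 without the block and 0.0018 with it, and passed without the block when arrays were centred on their median (adjusted p = 0.0195) or corrected by normexp (adjusted p = 0.0421). The difference of 24h from 0h was -1.34 ± 0.58 (adjusted p = 0.129, 0.0045 with the block and 0.0393 with median centring), with -0.72 on slide 1 and -1.96 on slide 2. Its difference of 24h from DMSO was 0.81, with a 95% interval of -0.48 to 2.11 in the fit without the block. By slide it was 1.51 and 0.11, and it was not called with the block either (SE 0.28, adjusted p = 0.060).

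Ddx4, the RNA helicase Vasa of germ granules, rose at 24h. Log2 values were 0.51 and 0.94 in DMSO, 0.02 and 0.45 at 0h, -0.06 and 0.19 at 30m, 0.03 and 0.21 at 1h, 0.05 and 0.40 at 2h, 0.32 and 0.43 at both 4h and 8h, and 1.06 and 1.17 at 24h. The 24h arrays were above all others and close together, and those of 4h and 8h overlapped 0h. Ddx4 was 0.89 ± 0.20 higher at 24h than at 0h, 1.85-fold (adjusted p = 0.0093), and 0.74 ± 0.20 higher than at 8h (adjusted p = 0.0452). The first call was lost without replicate 1 of 0h (0.67, adjusted p = 0.0808), and the second was lost without any 1 of 10 arrays (both replicates of 30m, 1h, 4h, 8h and 24h: 0.69 to 0.79, adjusted p = 0.0584 to 0.160), with median centring (adjusted p = 0.0971) or with no filter (adjusted p = 0.0673). Against DMSO it was 0.39 higher at 24h (adjusted p = 0.256, and 0.0318 with the block), and at 0h the difference from DMSO was -0.50 ± 0.20 (adjusted p = 0.226, and 0.0187 with the block).

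Mael, Maelstrom of the piRNA pathway, had the largest of the rises called at 24h. Its log2 values were 2.91 and 3.17 in DMSO, 2.20 and 1.93 at 0h, 2.12 and 1.78 at 30m, 2.16 and 1.98 at 1h, 2.38 and 1.87 at 2h, 2.71 and 2.08 at 4h, 3.23 and 2.18 at 8h, and 3.49 and 3.40 at 24h. On slide 1 the level was already up at 8h, while on slide 2 the step came between 8h and 24h. Mael was 1.38 ± 0.33 higher at 24h than at 0h, 2.60-fold (adjusted p = 0.0129), with 1.29 on slide 1 and 1.47 on slide 2. Without replicate 1 of 24h or replicate 2 of 0h the difference was 1.34 and 1.25 (adjusted p = 0.0773 and 0.0808), and with median centring 1.29 (adjusted p = 0.0863). At 8h it was 0.64 ± 0.33 above 0h, with 1.03 on slide 1 and 0.25 on slide 2 (adjusted p = 0.296). Without replicate 2 of 8h this was 1.16 and called (adjusted p = 0.0360), and without replicate 1 of 8h the step between 8h and 24h was called (1.26, adjusted p = 0.0404). The difference of 0h from DMSO was -0.97 ± 0.33 (adjusted p = 0.153, and 0.0308 with the block), and at 24h the difference from DMSO was 0.41 (95% interval -0.32 to 1.14). Over the 8 group means Ddx4 and Mael had a Pearson r of 0.970, and 0.949 without 24h.

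Sycp3, a component of the axis that chromosomes form in meiosis, did not go the way of Ddx4 and Mael. Its log2 values were 1.46 and 1.45 at 24h, against 2.30 and 1.72 at 0h and 2.08 and 2.06 in DMSO, and both 24h arrays lay below all arrays of those groups. The difference of 24h from 0h was -0.55 ± 0.32 (adjusted p = 0.252, and 0.0298 with the block), and that from DMSO -0.61 ± 0.32 (adjusted p = 0.263, and 0.0293 with the block). From 30m to 8h its values ran from 1.50 to 2.49. Dazl, which controls the translation of germ cell RNAs, had log2 values from -2.66 to -1.88 over the 16 arrays, with -2.07 and -2.42 at 24h and -2.14 and -2.41 at 0h. It was not called in any comparison in either fit, and its 95% interval at 24h against 0h was -0.45 to 0.51. At 0h against DMSO its arrays moved in opposite directions on the slides, 0.23 and -0.53.

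Other genes of meiosis, piRNAs and germ cells were read from a list of 42 that holds none of the 10, of which 35 were tested. At 24h against 0h 11 were called higher and 1 lower, beside 10.8% and 12.9% of all genes, with a list median of 0.29 against -0.01 for all genes. The 11 include Tex12, which entered the test only through 8h and 24h, where it was brightest. The highest was Piwil2, a Piwi protein that binds piRNAs, 1.98 ± 0.23 higher (adjusted p = 0.0003), with log2 values of -0.53 and -0.21 at 24h, -2.51 and -2.19 at 0h, and -1.46 and -0.82 in DMSO. Sycp1 (1.31 ± 0.17), part of the synaptonemal complex that joins chromosomes in meiosis, was also higher, as were the testis gene Tex101 (1.34 ± 0.30), Tex19.1 (1.03 ± 0.24), and Ddx25, a testis RNA helicase (0.95 ± 0.13). Tex11, Syce1, Slc25a31, Boll and Taf7l rose by less, 0.53 to 0.64. The 1 that fell was Rpl10l, a retrogene copy of a ribosomal protein gene (-0.89 ± 0.23). Tex12, another part of that complex, had log2 values of -3.70 and -3.81 at 24h and of -5.60 and -5.11 at 0h, where it was well above background on only 1 of 2 arrays.

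The same list at 0h against DMSO had 0 higher and 5 lower, with a median of -0.42 against -0.01 for all genes. Piwil2 (-1.22 ± 0.23, adjusted p = 0.0216), Sycp1 (-1.07 ± 0.17, adjusted p = 0.0125), Zcwpw1 (-1.03 ± 0.22), Tex11 (-0.90 ± 0.18) and Slc25a31 (-0.83 ± 0.16) were lower at 0h. With the block the counts were 1 higher and 9 lower, and for 24h against 0h 13 higher and 3 lower. At 4h Tex19.1 alone was called (1.17 ± 0.24 higher than at 0h). At 8h Tex101 (1.27), Piwil2 (1.07) and Sycp1 (0.91) were higher and Rec8, a cohesin of meiosis (-0.71), was lower. With the block the counts were 2 higher and 0 lower at 4h and 3 higher and 2 lower at 8h. Against DMSO, 24h cells had 0 of these genes higher and 2 lower, Rpl10l (-1.17) and Zcwpw1 (-0.91), with a median of -0.02, and with the block 3 higher and 4 lower. Among all genes, 3.49% were called at 0h against DMSO, 3.19% at 4h, 6.65% at 8h and 11.4% at 24h against DMSO. With the block these shares were 14.9%, 16.1%, 21% and 26%, and 39.5% at 24h against 0h. Of 44 promoter windows that matched 35 genes of the list, 14 hold TCCCGC (31.8%) and 19 hold CACGTG (43.2%), against the 16.9% and 6.02% of all windows given above. The list contains genes known as targets of the silencing complex, so these shares are a description.

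**Figure D3:**
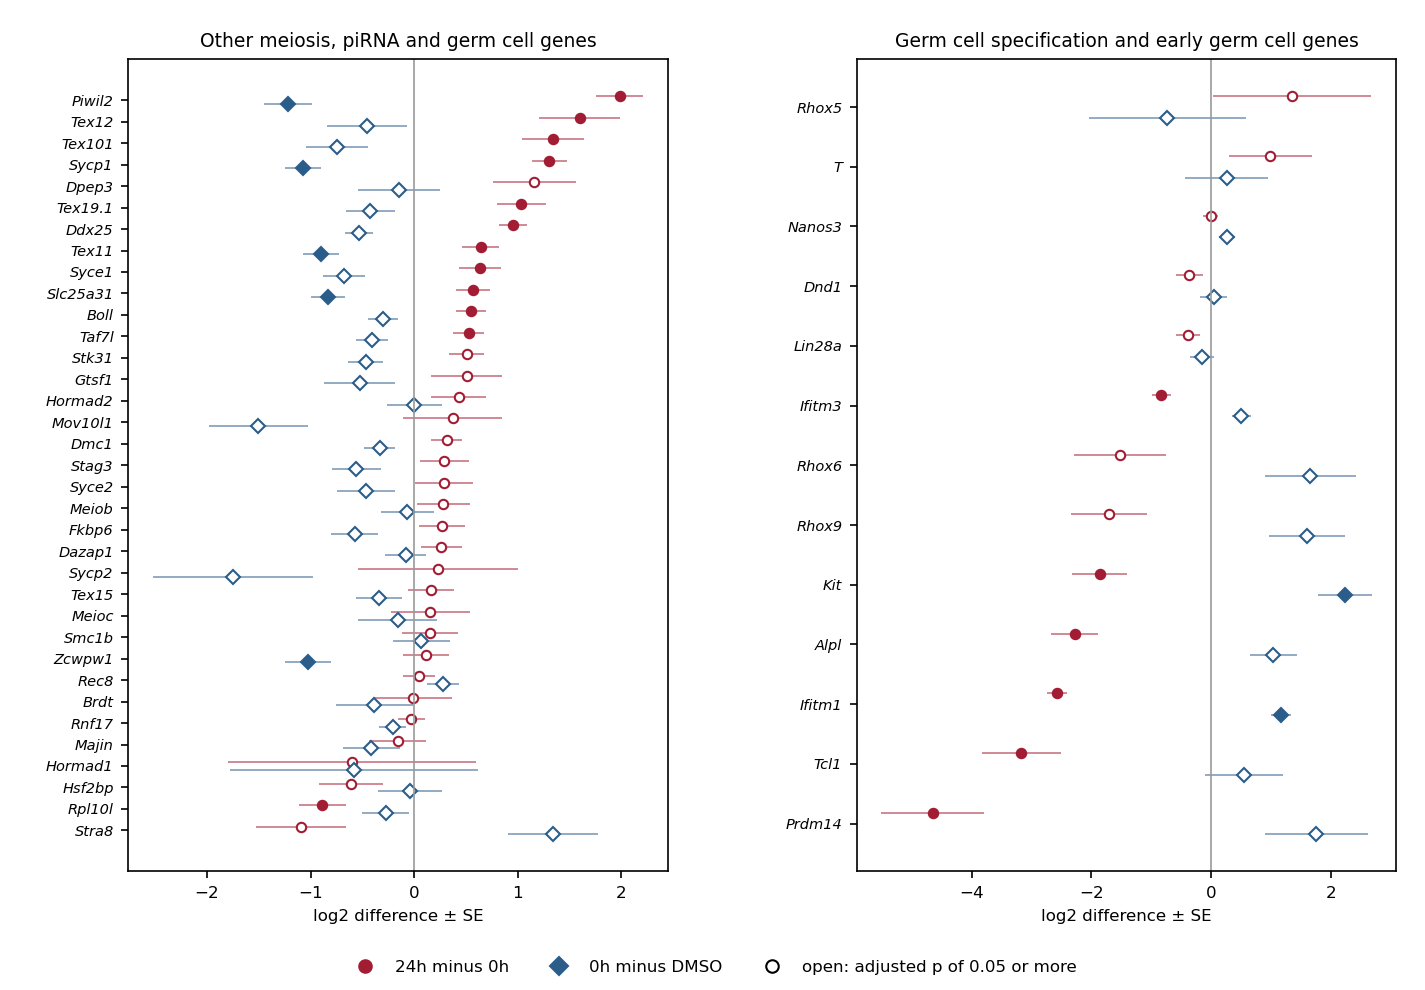
Log2 difference of group means with its SE (x axis) for each tested gene of the list of meiosis, piRNA and germ cell genes (left, 35 genes) and of the list of germ cell specification genes (right, 13 genes); circles are 24h minus 0h, diamonds 0h minus DMSO, and filled symbols have an adjusted p under 0.05. On the left 11 filled circles lie above 0 and 5 filled diamonds below it, and on the right 6 filled circles lie below 0 and 2 filled diamonds above it; both comparisons use the same 0h arrays.

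Genes of germ cell specification and early germ cells, a list of 13 without the members, were all tested. At 24h against 0h 0 were higher and 6 lower, beside 10.8% and 12.9% of all genes. The list median was -1.53 against -0.01 for all genes. Prdm14, the partner of Prdm1 and Tfap2c, had log2 values of -2.62 and 0.28 at 24h, 3.39 and 3.57 at 0h, and 1.74 and 1.72 in DMSO. It fell by 4.65 ± 0.86 at 24h relative to 0h (adjusted p = 0.0036). Tcl1, a coactivator of Akt (-3.17 ± 0.65), the surface protein Ifitm1 (-2.58 ± 0.17), alkaline phosphatase Alpl (-2.28 ± 0.39), the receptor Kit (-1.86 ± 0.45) and Ifitm3 (-0.83 ± 0.15) were the other 5. At 0h against DMSO 2 were higher, Kit (2.23 ± 0.45, adjusted p = 0.0289) and Ifitm1 (1.17 ± 0.17, adjusted p = 0.0077), and 0 were lower. With the block the counts were 6 higher and 1 lower at 0h against DMSO, and 1 higher and 8 lower at 24h against 0h. At 8h Alpl (-1.58) and Dnd1, an RNA-binding protein of germ cells (-1.01), were below 0h, and with the block 2 of the list were higher and 2 lower. Against DMSO at 24h Tcl1 (-2.63) and Ifitm1 (-1.41) were called lower and 0 higher, and the block gave 2 higher and 5 lower. Of all genes, 3.49% were called at 0h against DMSO, 6.65% at 8h against 0h and 11.4% at 24h against DMSO. With the block these shares were 14.9%, 21% and 26%, and 39.5% at 24h against 0h.

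Cofactors and relatives of Tfap2c and Prdm1 formed a list of 12, with 10 tested. At 24h against 0h, beside Prdm14, the AP-2 factor Tfap2a (-1.43 ± 0.41), the AP-2 inhibitors Kctd1 (-2.30 ± 0.57) and Kctd15 (-1.61 ± 0.46) and the coactivator Cited2 (-0.82 ± 0.23) were lower, and Tfap2e was higher (1.43 ± 0.42). Kctd1 was well above background on 1 of 2 arrays at 24h and Tfap2e on 1 of 2 arrays at 0h. At 24h against DMSO, Cited1 was higher (1.00 ± 0.22) and 0 were lower. The block gave 1 higher and 6 lower at 24h against 0h, 1 higher and 3 lower at 24h against DMSO, and 3 higher and 0 lower at 0h against DMSO, where 0 were called without it. In these comparisons, in that order, 23.7%, 11.4% and 3.49% of all genes were called, and 39.5%, 26% and 14.9% with the block. Among 24 genes of the early cleavage embryo, many are known to lie downstream of Dppa2 and Dppa4 in stem cells. Of the 24, 19 had a named probe on the array, and 10 of those were bright enough to test. At 24h against 0h 0 of these were called higher and 2 lower (0 and 3 with the block), beside 10.8% and 12.9% of all genes tested, so the counts are near that background. The 2 were Zfp352 (-0.76 ± 0.21) and Zscan4a (-0.66 ± 0.21). Zscan4 genes are near-identical copies, so which copy Zscan4a's probe reads is uncertain.

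The machinery that silences germ cell genes was measured by 26 genes, all tested. None was called at 0h against DMSO, although with the block 2 were higher and 3 lower. At 24h against 0h 4 were higher and 5 lower, beside 10.8% and 12.9% of all genes, and the block made this 7 and 9, where it called 39.5% of all genes in either direction. The higher ones were E2f6 (1.12 ± 0.25) and Pcgf6 (0.57 ± 0.18) of the Polycomb complex, the DNA methyltransferase Dnmt3a (1.01 ± 0.15) and the histone methyltransferase Ehmt2 (0.99 ± 0.20). Lower were the corepressor Trim28 (-0.98 ± 0.22), Hdac2 (-0.76 ± 0.17), the chromatin proteins Wdr5 (-0.76 ± 0.17) and Rybp (-0.71 ± 0.11), and the methyltransferase Setdb1 (-0.65 ± 0.12). Dnmt3a was already higher (0.78) and Rybp lower (-0.53) at 8h, when the block called 3 higher and 3 lower. Against DMSO, E2f6 (1.00) and Dnmt3a (0.52) were higher at 24h, and Trim28 (-1.09), Tet1, which oxidises methylated cytosine (-0.81), and Hdac2 (-0.65) were lower, and the block made these counts 4 and 9. The list median was -0.09 at 24h against 0h. Shares of all genes called were 3.49% at 0h against DMSO, 6.65% at 8h and 11.4% at 24h against DMSO. With the block they were 14.9%, 21% and 26%.

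Of all genes tested, 10.8% were called higher and 12.9% lower at 24h against 0h. Dppa3 lies on chromosome 6 between Gdf3 and Nanog, and 3 of the 4 nearest genes were called lower in this comparison as well. Nanog, the pluripotency factor next to it, had log2 values of -1.76 and 1.57 at 24h, against 4.48 and 4.59 at 0h, a difference of -4.63 ± 0.80 (adjusted p = 0.0025). Gdf3, a TGF-beta ligand on the other side, fell by 1.39 ± 0.15 (adjusted p = 0.0003), and the glucose transporter Slc2a3, beyond Nanog, fell by 1.57 ± 0.31 (adjusted p = 0.0047). Apobec1, beyond Gdf3, was not called, with a difference of 0.08 ± 0.13 (adjusted p = 0.726). Around Dppa2 and Dppa4 on chromosome 16 no neighbour was called higher. Morc1, which acts in the silencing of transposons in male germ cells, fell by 1.13 on the log2 scale at 24h against 0h (SE 0.24, adjusted p = 0.0077), and Nectin3 on the other side differed by -0.11 ± 0.15. Trat1 was not bright enough to test. Beside Dppa5a on chromosome 9, Ooep, a gene of the oocyte, fell by 0.88 on the log2 scale (SE 0.25, adjusted p = 0.0256), and Ddx43 differed by -0.30 ± 0.16 (adjusted p = 0.217). RefSeq's gene order (GRCm38.p6) was used for neighbours.

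**Figure D4:**
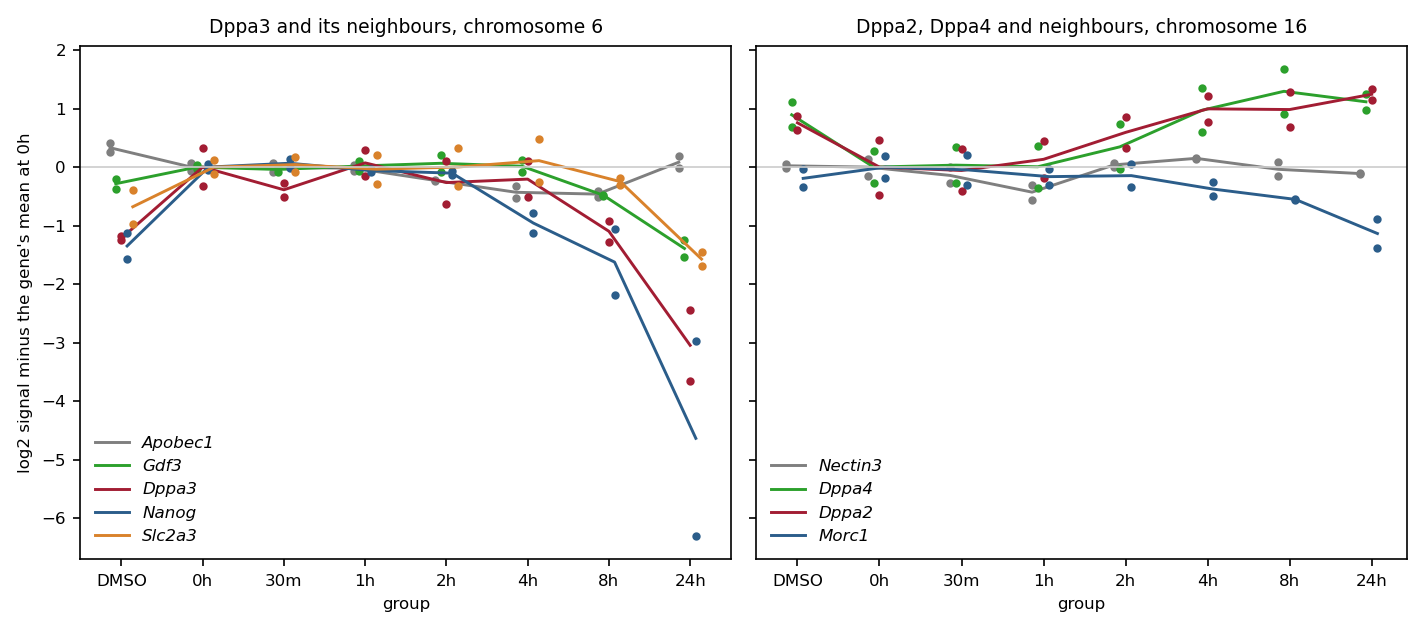
Log2 signal minus the gene's own mean at 0h (y axis) in the 8 groups (x axis) for Dppa3 with its neighbours and for Dppa2 and Dppa4 with theirs; points are arrays and lines join group means. At 24h Nanog, Dppa3, Slc2a3 and Gdf3 lie below their 0h level and Apobec1 lies near it, while Dppa2 and Dppa4 lie above theirs and Morc1 below.

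For each called member, the 3 tested genes whose 8 group means correlated best with its own were listed, as a description over 8 points that share arrays. Dppa2 was followed most closely by Tor3a (r = 0.997), Spry2, a feedback inhibitor of receptor tyrosine kinase signalling (0.993), and Bop1, a factor of ribosome assembly (0.992). The closest to Dppa3 were Gabarap (0.995), Oas1f (0.990) and Krt79 (0.990), and to Prdm1 Elf3 (0.985), Cdon (0.979) and Chst12 (0.979). Ddx4 had Sfxn1 (0.993), Cilp2 (0.992) and Simc1 (0.990), and Mael had Dab1 (0.997), Tcf15 (0.995) and Mpp3 (0.993).

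Some markers of cell states also differed between 24h and 0h, and their part in the results was not tested. In that comparison 10.8% of all genes were called higher and 12.9% lower, and 39.5% in either direction with the block. Among 8 markers of embryonic stem cells 1 was higher and 4 lower at 24h than at 0h (1 and 5 with the block), and their summed linear signal, in units of each array's 75th percentile, was 322 to 357 at 24h, 394 to 477 at 0h and 431 to 509 in DMSO. Of 8 tested trophoblast markers out of 9, 5 were higher and 1 was lower, and the sum was 63.6 to 111 at 24h, 11.8 to 16.5 at 0h and 11.0 to 12.4 in DMSO. At 0h 6 of the 9 were well above background on both arrays, and at 24h 8 were. A marker that entered the test only through its bright groups is set to be higher there, so this count is a description. Cdx2, a defining trophoblast factor, was well above background on 2 of 2 arrays at 24h and 0 of 2 at 0h, while Elf5 was not well above background in any group. Primitive endoderm markers, 2 of 8 higher and 1 lower (2 lower under the block), summed to 11.4 to 12.9 at 24h, 30.7 to 31.4 at 0h and 8.90 to 12.3 in DMSO. The 5 markers of primed pluripotent cells, 1 of them higher, summed to 35.4 to 57.2 at 24h, 19.2 to 27.0 at 0h and 36.2 to 42.1 in DMSO. Fibroblast markers (7, with 5 tested) had 1 higher, Thy1 (with the block also 1 lower). They summed to 13.6 to 14.3 at 24h, 3.02 to 3.07 at 0h and 4.49 to 5.71 in DMSO. No array had Postn or Lum well above background.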

How the data were processed

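Total RNA was labelled and hybridised in 1 colour, and per the file headers Agilent Feature Extraction 11.0.1.1 read the scans, with probe annotation of the mm9 build. The authors deposited each spot's processed intensity, corrected by the scanner software for background within the array, and a value table that holds the same intensity rounded and unscaled. Each array's sample was taken from the value table, whose columns matched 1 scanner file each at 100% of spots (tolerance 0.6%, next best column at most 4.99%).

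Signals were expressed as log2 of the deposited processed intensity minus the array's 75th percentile (445 to 660). Control and outlier spots (147 to 240 an array) were left out, 0 spots were saturated, and spots of a probe were averaged. Probes were named by transcript accession through RefSeq (GRCm38.p6): of 55681 probes 27656 matched 1 gene, 28025 none and 0 several. The brightest probe on average stood for a gene, and genes entered the test when both arrays of some group had it well above background (15660 of 20972). The test was limma 3.58.1 in R 4.3.3, with 8 group means, 16 arrays and 8 residual degrees of freedom (7 with the block). On simulated data for 24h against 0h over 15660 genes, it recovered 36 of 100 genes changed by 1 and 73 of 100 changed by 2 on the log2 scale, with 12 false calls. The simulated arrays shared no slide effect, and far fewer genes were changed than the 3709 called in the data. These shares are therefore not the sensitivity of the real comparison. The number of arrays limits the precision.

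Deviations of same-numbered arrays from their group means correlated in 28 of 28 pairs of groups (r from 0.328 to 0.659), so the numbers pair the arrays, and blocked values stand beside the results of the 10 genes whose call they change, and as counts for the other lists. Replicates correlated at 0.982 to 0.990 over genes. Alternatives were quantile normalization, median centring, normexp background correction (offset 50), no filter on dim probes, the mean over a gene's probes, the block, the other attachment and leaving out each array. The plan named the mean signal for normexp, and the files hold the median signal, which was used. The genes and lists were chosen with earlier results of these data known, so their counts are no independent evidence. Named were all 10 genes, list members called in 0h against DMSO or 24h against 0h (at most 8 a list by size) or elsewhere, the 3 best-correlated genes of each called member, and the nearest 2 coding genes on each side of the Dppa genes. List genes beyond those 8 were named after their values were seen. Promoter windows are RefSeq's.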

Additional observations from a re-analysis of the deposited data

How the results depend on the processing

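The array record decides most: when samples followed the scanner files' attachment, 0 members were called at 24h against 0h, 24h against DMSO or 24h against 8h, and Dppa2 (-0.36, adjusted p = 0.834) and Prdm1 (0.28, adjusted p = 0.909) reversed their direction at 24h against 0h. The replicate block raised the members called to 7 at 0h against DMSO, 3 at 4h, 3 at 8h, 8 at 24h against 0h and 4 at 24h against DMSO. It removes the difference between slides and ended no call. At 0h against DMSO 1 member was called under median centring and 1 under normexp correction, Tfap2c in both, and at 8h 1 under normexp, Dppa4. With no filter on dim probes 1 member was called at 24h against 8h. Leaving out 1 array at a time gave 2 to 5 members called at 24h against 0h, 0 to 1 at 24h against DMSO, 0 to 2 at 24h against 8h, 0 to 1 at 8h and 0 in the other comparisons. The fewest at 24h against 0h, 2, came without replicate 1 of 24h or replicate 2 of 0h. Under median centring the Dppa2 and Mael calls at 24h against 0h were lost (1.15, adjusted p = 0.205, and 1.29, adjusted p = 0.0863). With arrays left out, 25 calls of a gene in a comparison were lost and 3 gained, counted over the 16 arrays. Median centring moved the median of all genes by -0.139 at 2h, where no member was called, and by under 0.1 elsewhere. Causes were not tested. Signal over background did not limit these 10 genes, which were well above it on all 16 arrays, while 2 arrays a group limit every test.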
